A study of Homo sapiens and Mus musculus with 6 samples.

Results

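The genes that write, erase and guard DNA methylation were examined as baits and partners of promoter contacts. The set held 10 genes, namely *Tet1*, *Tet2*, *Tet3*, *Dnmt1*, *Dnmt3a*, *Dnmt3b*, *Dnmt3l*, *Dppa2*, *Dppa3* and *Dppa4*, and a call was kept where one of these symbols stood at either end. In the mESC list all 10 genes were found, with 69 of 101841 calls. In the GM12878 list, read with the symbols in capitals, 7 genes were found, with 55 of 92929 calls.

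Promoter Capture Hi-C (CHi-C) ligates DNA ends that lie close together in fixed nuclei and pulls out the promoter-bearing *Hin*dIII fragments, called baits. It was carried out in 2 biological replicates of J1 mESCs (strain 129S4/SvJae), which were expanded on embryonic fibroblast feeders that were then removed by passaging, and in 3 biological replicates of GM12878, a human lymphoblastoid line of B-lymphocyte origin. A single Hi-C library of the mESCs was made without capture. No group was treated. Each cell type has 1 merged set of calls, so no spread between replicates could be computed, and the intervals given for shares and medians cover counting error alone. The lists hold contacts and no expression, so the cell labels could not be checked against marker genes.

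As background, DNMT1 copies methylation of CpG dinucleotides onto newly made DNA strands, DNMT3A and DNMT3B set new methylation, and DNMT3L is a partner of the latter without catalytic activity. The TET proteins oxidise methylated cytosine, which opens the way to its loss. DPPA3, also called Stella, protects methylation in the early embryo, and DPPA2 and DPPA4 are SAP-domain proteins of pluripotent cells that bind each other and occupy promoters. *Dnmt3l* and the *Dppa* genes are known as genes of germ cells, early embryos and stem cells, whereas *Dnmt1* is used in all dividing cells.

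The baited fragments of the genes in mESCs (mm9) were chr10:62358488-62363588 for *Tet1*, chr3:133206025-133210580 for *Tet2*, chr6:83389043-83394488 for *Tet3*, chr9:20756897-20773658 for *Dnmt1*, chr12:3798499-3806240 for *Dnmt3a*, chr2:153474261-153498737 for *Dnmt3b*, chr10:77498687-77517570 for *Dnmt3l*, chr16:48310170-48313747 for *Dppa2*, chr6:122575543-122577475 for *Dppa3* and chr16:48282267-48284971 for *Dppa4*. Each held the start of a coding transcript of its gene except that of *Dnmt3a*, where 1 of 18 annotated transcripts began and none of those beginning there was coding. Only 1 of the 7 annotated *Tet1* transcripts began in the *Tet1* bait, and another coding start lay further into the gene. The *Dnmt3b* bait was 24.5 kb long and the *Dppa3* bait 1.93 kb.

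The 250 bases before the most upstream coding start in the bait are printed for 5 genes in the direction of transcription, because these promoters differ widely in the CpG dinucleotides (capitals) that the encoded proteins act on. They come from mm9, at chr10:62361867-62362116 (minus strand) for *Tet1*, chr3:133207355-133207604 (minus) for *Tet2*, chr6:83391670-83391919 (minus) for *Tet3*, chr9:20757318-20757567 (minus) for *Dnmt1* and chr16:48310340-48310589 (plus) for *Dppa2*.
Tet1: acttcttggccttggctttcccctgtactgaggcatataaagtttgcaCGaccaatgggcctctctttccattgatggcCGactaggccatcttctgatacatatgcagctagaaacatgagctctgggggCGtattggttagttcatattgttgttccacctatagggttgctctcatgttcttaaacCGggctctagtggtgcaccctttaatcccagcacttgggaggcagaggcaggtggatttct
Tet2: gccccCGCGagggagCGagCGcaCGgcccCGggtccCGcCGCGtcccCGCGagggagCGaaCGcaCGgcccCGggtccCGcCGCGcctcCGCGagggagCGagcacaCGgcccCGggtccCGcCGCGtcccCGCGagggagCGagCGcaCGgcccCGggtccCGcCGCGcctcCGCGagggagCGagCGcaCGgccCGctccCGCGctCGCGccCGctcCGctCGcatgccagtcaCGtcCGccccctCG
Tet3: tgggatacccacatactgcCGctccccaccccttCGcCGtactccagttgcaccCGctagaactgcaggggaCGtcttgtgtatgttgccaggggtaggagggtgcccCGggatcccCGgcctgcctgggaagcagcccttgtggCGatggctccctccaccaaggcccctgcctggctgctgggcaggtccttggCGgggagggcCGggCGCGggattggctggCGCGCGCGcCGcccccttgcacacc
Dnmt1: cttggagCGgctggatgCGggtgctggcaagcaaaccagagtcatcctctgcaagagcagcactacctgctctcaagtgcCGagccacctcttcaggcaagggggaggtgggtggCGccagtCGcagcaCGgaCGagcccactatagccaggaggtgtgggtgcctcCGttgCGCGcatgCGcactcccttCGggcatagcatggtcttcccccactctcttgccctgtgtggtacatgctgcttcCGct
Dppa2: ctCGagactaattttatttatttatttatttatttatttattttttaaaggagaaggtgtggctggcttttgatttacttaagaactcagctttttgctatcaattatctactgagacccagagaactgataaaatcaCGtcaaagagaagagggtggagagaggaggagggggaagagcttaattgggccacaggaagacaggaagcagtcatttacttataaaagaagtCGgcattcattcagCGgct

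The *Tet2* window held 51 CpG, more than 99.9% of the 13245 promoters read in this way, whose median was 11. *Dnmt3b* held 21, *Tet3* 17, *Dnmt1* 13, *Dppa3* 6, *Dnmt3l* 5 and *Tet1* and *Dppa2* 4 each. The windows of the TET genes, that of *Tet1* before 1 of its 7 annotated transcripts, thus ranged from CpG-poor to CpG-dense. Those of *Dppa2* and *Dppa3* lay below the median. Calls from the bait did not follow this order, since the *Tet1* bait made 14 calls, the *Tet2* bait 5 and the *Dnmt3b* bait 1. Over all promoters with 0 to 4 CpG the median was 3 calls from the bait, and it was 4 in each class with more CpG. At least 5 calls were made by 33.2% of promoters with 0 to 4 CpG and by 44 to 45.5% of those in the other classes. In GM12878 the window of *TET3* held 30 CpG, that of *TET2* 10, that of *TET1* 9 and those of *DPPA3* and *DPPA4* 2 and 3.

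**Figure D1:**
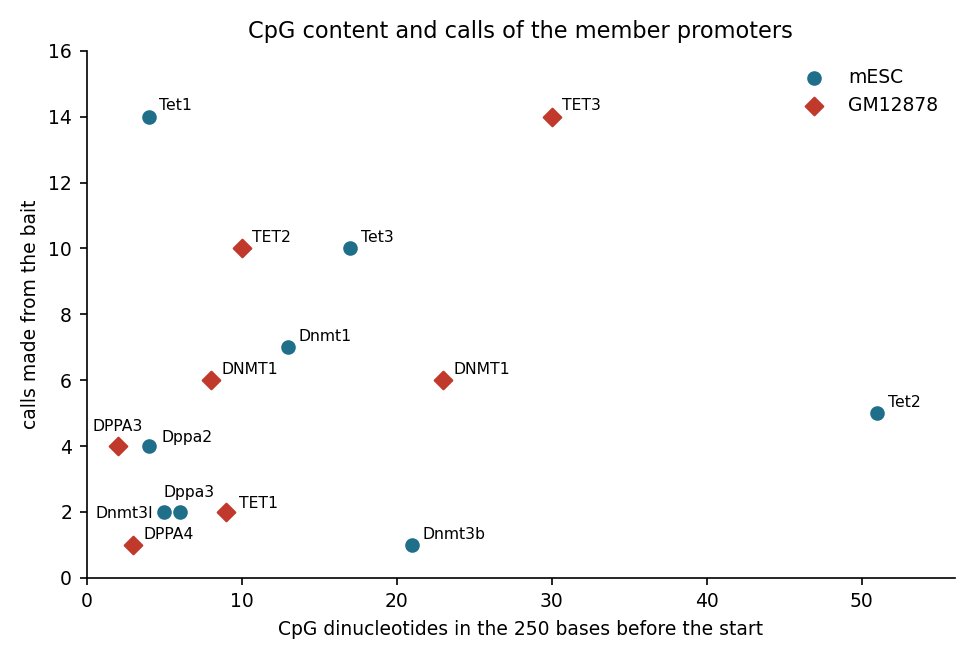
Each point is a baited promoter, with the number of CpG dinucleotides in the 250 bases before its most upstream coding start on the x axis and the number of calls made from that bait on the y axis; circles are mESC and diamonds GM12878. *Tet1* with 4 CpG and TET3 with 30 CpG both made 14 calls, whereas *Tet2* with 51 CpG made 5. *Dnmt3a* and DNMT3L are left out because no coding start lies in their bait, *Dppa4* of mESC is not shown, and DNMT1 has 2 baits.

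In mESCs the 10 genes ranged from 1 to 19 calls. *Tet1* had 19 calls, *Tet3* 15, *Dnmt1* 9, *Tet2* 7, *Dnmt3a* 6, *Dppa2* and *Dppa4* 5 each, *Dnmt3l* and *Dppa3* 2 each and *Dnmt3b* 1. At least 5 calls were listed for 7 of the 10 genes, against 47.7% of all symbols in the list. The TET genes together gave 41 of the 69 calls. In GM12878 *TET3* had 16 calls, *DNMT1* 15, *TET2* 14, *DPPA3* 6, *TET1* 2 and *DNMT3L* and *DPPA4* 1 each, so that 4 of the 7 listed genes reached 5 calls, against 48.0% of all symbols in that list. *DNMT3A*, *DNMT3B* and *DPPA2* were not listed there, and a promoter that was not captured cannot be told apart from one without a call. Of all symbols in the mESC list, 51.1% were also found in the GM12878 list by letters alone. The mESC list named several genes for 0.0408% of its named fragments and the GM12878 list for 35.9%, so counts by symbol are set side by side for the members and not compared.

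**Figure D2:**
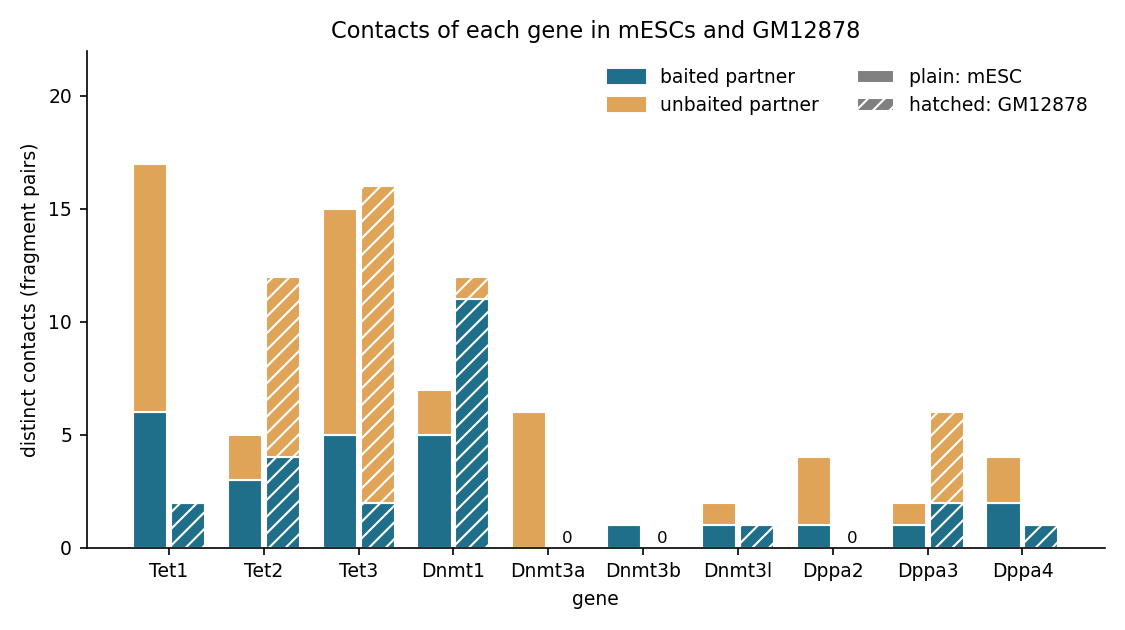
Bars give the number of distinct fragment pairs (y axis) for each gene (x axis), plain in mESC and hatched in GM12878, split by whether the partner fragment is itself a bait. *Tet1* stands at 17 pairs in mESC and 2 in GM12878, *Tet3* at 15 and 16, and a 0 marks the genes not listed in GM12878.

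All calls of the genes were within a chromosome, as were 101262 of all 101841 mESC calls and 92641 of all 92929 GM12878 calls. The longest call of the genes spanned 693 kb. In mESCs the median distance of their calls was 111 kb (95% interval 63.5 to 149 kb), and that of all mESC calls, 139 kb, lay inside this interval. It was 57.9 kb over calls on at least 10 reads and 66.5 kb over calls with a score of at least 10. The median CHiCAGO score, which grows as the weighted p-value of a contact falls and is at least 5 in these lists, was 6.30 (interval 5.98 to 6.78), against 6.62 over all calls. A score of at least 10 was reached by 10 of the 69 calls, against 16.9% of all mESC calls, and by 9 of the 55 GM12878 calls, against 16.3%. The other end was itself a bait in 31 of 69 mESC calls, or 44.9% (Wilson 95% interval 33.8 to 56.6%), where the share over all calls was 35.0%. In GM12878 it was 28 of 55, or 50.9% (38.1 to 63.6%), against 27.3% of all calls. Without *DNMT1*, 35.0% (22.1 to 50.5%) of the remaining 40 calls had a baited other end. Every fragment of the genes was a bait, so a call kept for a gene at its other end counted as baited by selection. In mESCs these included 5 calls each of *Tet1* and *Tet3* and 2 each of *Tet2* and *Dnmt1*. In GM12878 they were 4 of *TET2*, 3 of *DNMT1* and 2 each of *TET3* and *DPPA3*. The baited shares of the set are raised by this and cannot be read against those of all calls. The median distance in GM12878 was 124 kb (96.9 to 157 kb), against 174 kb over all calls, and 147 kb (97.0 to 198 kb) without *DNMT1*. Of the 24 promoter pairs among them, 7 were called from both ends, against 27.5% of all such mESC pairs, and in GM12878 5 of 23 were, against 20.2%. In 22 of 69 mESC calls the other end adjoined another other end of the same bait, against 36.2% of all calls, and in GM12878 25 of 55 did, against 38.4%. The genes as a set thus had shares near those of their lists in score, calling from both ends and grouping.

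**Figure D3:**
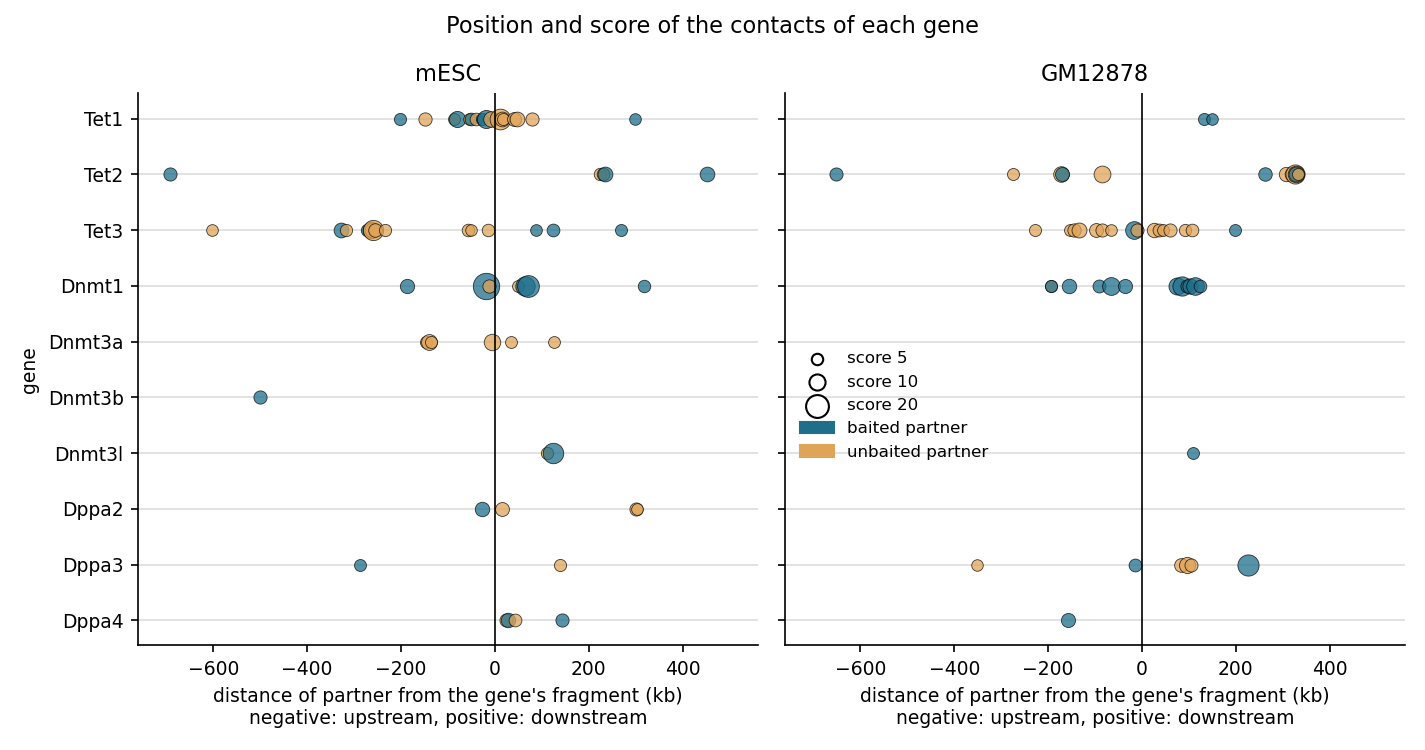
Each point is a contact of the gene on its row, placed by the distance in kb from the gene's fragment (x axis; upstream negative, downstream positive, in the direction of transcription), with an area that grows with the CHiCAGO score and a colour for baited or unbaited partners. In mESC most *Tet1* contacts lie within 100 kb of the gene while the *Tet3* contacts gather near 260 kb upstream; in GM12878 the *TET2* contacts gather at 307 to 332 kb downstream.

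Among the erasers, *Tet1* made short contacts to both sides. Its strongest was with an intronic fragment of its own gene, 11.5 kb downstream, on 66 reads (a mean over replicates, weighted and rounded by the authors) with a score of 16.47, where calls of like distance (within 10%) had a median of 46.0 reads. In all, 6 of its 17 partner fragments overlapped *Tet1* itself. The fragment 17.2 kb downstream (26 reads, score 5.56) ended 0.096 kb short of the second coding start of *Tet1*.

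Upstream, *Tet1* met a row of promoters of other genes. *Slc25a16*, a mitochondrial carrier, lay 19.4 kb away with 34 reads and a score of 12.59. *Dna2*, a helicase and nuclease of DNA replication, lay 50.3 kb away with 21 reads and was called from both ends with scores of 5.45 and 6.20. *Rufy2* lay 81.4 kb away with 19 reads and was also called from both ends, with scores of 7.48 and 10.08. *Atoh7*, a transcription factor of the retina, was the farthest upstream, at 203 kb with 11 reads and a score of 5.72. On the downstream side the RNA helicase gene *Ddx21* was reached at 298 kb, with 8 reads and a score of 5.20. None of these promoter pairs was listed in GM12878, where *TET1* was joined only to 2 neighbouring fragments, 133 and 149 kb downstream, which cover the end of the gene and the sequence beyond it; each had 11 reads, with scores of 5.61 and 5.23.

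*Tet2* showed the reverse form, with no contact nearer than 224 kb. Its partner of highest score was the promoter of *Ppa2*, a mitochondrial pyrophosphatase, 234 kb downstream with 14 reads and called from both ends with scores of 8.10 and 8.41. Unbaited *Ppa2* fragments 231 and 224 kb away had 9 reads each and scores of 6.10 and 5.98. *Ints12*, a subunit of the Integrator complex whose fragment also holds a start of *Gstcd*, lay at 453 kb with 9 reads and scores of 6.30 and 8.30. The longest contact of the whole set joined *Tet2* to *Cxxc4*, a CXXC zinc-finger gene, 693 kb upstream with 8 reads and a score of 6.69. All 5 partners thus lay in or at 3 other loci, and none in *Tet2* itself.

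In GM12878 *TET2* reached 2 of these 3 loci again. Fragments in and beside *PPA2* formed a block between 307 and 332 kb downstream, with the highest score, 14.08 on 19 reads, on an intronic fragment 1.55 kb from the nearest *PPA2* start. The exonic fragment between it and the promoter fragment had 16 reads and a score of 10.54. The *PPA2* promoter fragment itself had 9 reads and a score of 8.62, made from the *PPA2* side. *CXXC4* lay 653 kb upstream with 13 reads, and was called from both ends with scores of 6.64 and 5.62. A fragment 84.5 kb upstream, with an exon of a transcript that has no gene symbol, had 31 reads and a score of 10.85, and no mESC contact of *Tet2* was listed at that distance. *INTS12* was not joined to *TET2* in the GM12878 list.

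*Tet3* had a distant block of partners. Adjoining unbaited fragments 260.0, 262 and 263 kb upstream had 17, 11 and 13 reads and scores of 15.67, 8.41 and 10.83, where calls of like distance had a median of 9 reads. They lay at *Vax2os1*, a non-coding gene beside the eye homeobox gene *Vax2*, and the baited *Vax2os1* fragment 272 kb away was itself joined to *Tet3*, with 8 reads and a score of 5.89. Beyond it, *Ankrd53* (327 kb, 7 reads, score 8.40) shared its fragment with the start of *Tex261*. The longest *Tet3* contact ended in an intron of *Dysf*, 603 kb upstream, with 6 reads and a score of 5.27. Downstream, *Bola3*, *Mthfd2* and *Gm15624* were joined at 87.1, 125 and 269 kb with scores from 5.29 to 6.28.

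The GM12878 contacts of *TET3* were all within 227 kb and 8 of its 16 partners lay in *TET3* itself. The strongest was the fragment with *DGUOK-AS1* and a further *TET3* start, 16.7 kb upstream, with 29 reads and a score of 12.07. Upstream fragments in *DGUOK*, *ACTG2*, *STAMBP* and *DUSP11* followed at 65.3 to 227 kb with scores of at most 8.56. *MTHFD2*, a mitochondrial enzyme of folate metabolism, was the distant promoter partner found in both lists, at 125 kb in mESCs and at 198 kb (18 reads, score 5.51) in GM12878. No *VAX2* fragment was a partner of *TET3* in GM12878.

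Among the writers, *Dnmt1* had the strongest contacts of the set. Its call to the promoter of *S1pr2*, a sphingosine-phosphate receptor, 18.2 kb upstream, stood on 51 reads with a score of 26.73, where calls of like distance had a median of 32.0 reads. In GM12878 *S1PR2* and one *DNMT1* start were on a single baited fragment of 29.7 kb. No call joined that fragment to the other *DNMT1* bait, where 15 of the annotated transcripts begin. On the other side, the mESC bait met *Eif3g*, a translation initiation factor, at 63.5 kb (17 reads, scores 14.42 and 6.69) and the fragment beyond it at 69.5 kb (21 reads, scores 18.17 and 6.19). The latter was listed as *SNORD105.1* and also holds a start of *Ppan*, a ribosome biogenesis gene.

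The same side was joined in GM12878. The 2 *DNMT1* baits there each met both fragments with *EIF3G*, over 75.6 to 112 kb, with 16 to 23 reads and best scores of 8.91 to 14.24, and the farther of these fragments also named *PPAN* and *P2RY11*. *CDC37*, a chaperone partner of HSP90, was joined upstream in both lists, at 187 kb in mESCs (8 reads, score 7.85) and at 193 kb in GM12878 (11 reads, score 5.72). GM12878 further listed *MRPL4* and *ICAM1* (27 and 17 reads from the 2 baits), *TYK2* (12 reads), *ICAM4* (10 reads) and *ANGPTL6* (14 and 10 reads), whereas the mESC list held none of these as a partner of *Dnmt1*. *Ubl5*, 317 kb downstream with 5 reads and a score of 5.98, was the longest mESC contact of *Dnmt1*. In GM12878 11 of the 12 *DNMT1* fragment pairs had a baited partner, and in mESCs 5 of 7 did.

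*Dnmt3a* had 6 partners and none was baited. The nearest, an intergenic fragment 6.54 kb upstream, had 86 reads, the highest number in the set, and a score of 10.44. Adjoining fragments in *Dtnb*, which encodes beta-dystrobrevin, lay 135, 141 and 147 kb upstream with 10, 14 and 10 reads and scores of 5.64, 9.65 and 5.65. The promoter of *Pomc*, a hormone precursor gene 152 kb from the *Dnmt3a* bait, shared 3 of these 6 other ends. Its Jaccard index of 0.200 was the highest of any bait with at least 5 other ends. *Dnmt3b* had a single call, to *Tm9sf4* 500.1 kb upstream, with 8 reads and a score of 6.72. *Dnmt3l* was joined to *D10Jhu81e*, 124 kb downstream, with 16 reads and a score of 16.07, and to an intergenic fragment before it at 111 kb with 6 reads and a score of 5.80. *DNMT3L* in GM12878 was joined to *C21orf33* 108 kb downstream, with 15 reads and a score of 5.48. Like *D10Jhu81e* it lay downstream, and whether the 2 symbols name the same gene was not tested.

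The *Dppa2* and *Dppa4* promoters were joined to each other. They lie 28.3 kb apart on chromosome 16 and their pair had 20 reads, with a score of 8.06 from the *Dppa4* bait and 5.97 from the *Dppa2* bait. Both baits also met the same intergenic fragment downstream of *Dppa2*, with 25 reads and a score of 7.40 from *Dppa2* and with 11 reads and a score of 6.26 from *Dppa4*. *Dppa4* further met the fragment just before *Dppa2*, at 23.6 kb with 15 reads and a score of 6.58. Both genes reached into *Morc1*, a germline gene of transposon silencing: *Dppa4* at its promoter, 143 kb away with 9 reads and a score of 6.67, and *Dppa2* at exonic fragments 299.7 and 302 kb away with 6 and 5 reads and scores of 6.63 and 5.30. The *Morc1* bait shared 2 of the 4 other ends of *Dppa2* (Jaccard index 0.111).

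*Dppa3* had 2 weak contacts in mESCs, each on 5 reads. One went to *Phc1*, a Polycomb gene, 287 kb upstream with a score of 5.50, and the other to an intron of *Slc2a3*, a glucose transporter gene, 138 kb downstream with a score of 5.70. All 9 distinct contacts of the *Dppa* genes in mESCs had fewer reads than the median of calls of like distance. So did 21 of the 37 contacts of the TET genes and 9 of the 16 of the DNMT genes. Of all 62 contacts of the 10 genes, 39 had fewer reads and 18 had more.

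In GM12878 *DPPA3* had 6 contacts. That of highest score joined it to the *SLC2A3* promoter, 227 kb downstream, with 11 reads and a score of 17.28. *GDF3*, a growth factor gene of pluripotent cells 15.0 kb upstream, had the most reads, 63, and a score of 6.33. The fragment 82.3 kb downstream, in *NANOG*, lay 0.027 kb from the annotated *NANOG* start and had 32 reads with a score of 7.23. Adjoining fragments toward and in *SLC2A14*, at 97.0 and 104 kb, had 35 and 26 reads. The mESC list held 18 calls with *Nanog* but none that joined it to *Dppa3*. *DPPA4* had a single call in GM12878, with 8 reads and a score of 7.65, 157 kb upstream.

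**Figure D4:**
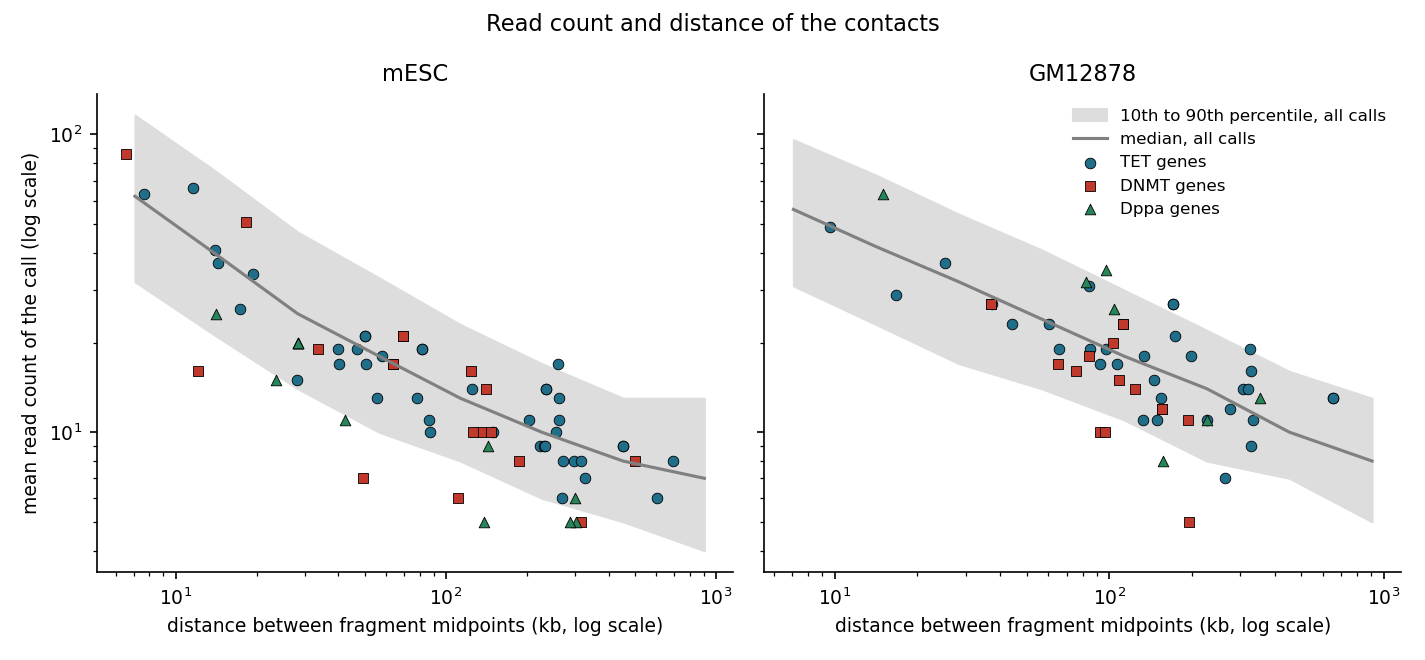
Each point is a call of the genes, with the distance between fragment midpoints in kb (x axis, log scale) and the mean read count of the call (y axis, log scale); the grey line and band are the median and the 10th to 90th percentile of all calls in the same list, in bins of distance. In mESC all *Dppa* points lie below the median line, and *S1pr2* with *Dnmt1* stands above it at 18.2 kb and 51 reads. In GM12878 the *DPPA3* contacts with 26 to 63 reads lie above the line.

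Promoter pairs of the genes were followed between the species by symbol. Of 16 mESC promoter pairs with both symbols baited in GM12878, 5 were joined there, or 31.2%, and over all such pairs the share was 32.4%. From the GM12878 side, 5 of 12 pairs were joined in mESCs, or 41.7%, against 36.7%. Pairs were counted by symbol, so a GM12878 fragment naming several genes could give several of these 12. The 5 pairs were *Dnmt1* with *Cdc37* and with *Eif3g*, *Tet2* with *Cxxc4* and with *Ppa2*, and *Tet3* with *Mthfd2*. Each partner lay on the same side of the gene in both species. Taking the fragment pair of highest score for each, the 5 distances ran from 63.5 to 693 kb in mESCs and from 84.5 to 653 kb in GM12878. The match was by letters, so partners named differently in the 2 lists are not among the 5. The mESC *Dnmt1* partner listed as *SNORD105.1*, which holds a start of *Ppan*, was thus not matched to the GM12878 fragment naming *PPAN*. Nor was *D10Jhu81e* matched to *C21orf33* as partners of *Dnmt3l*.

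**Figure D5:**
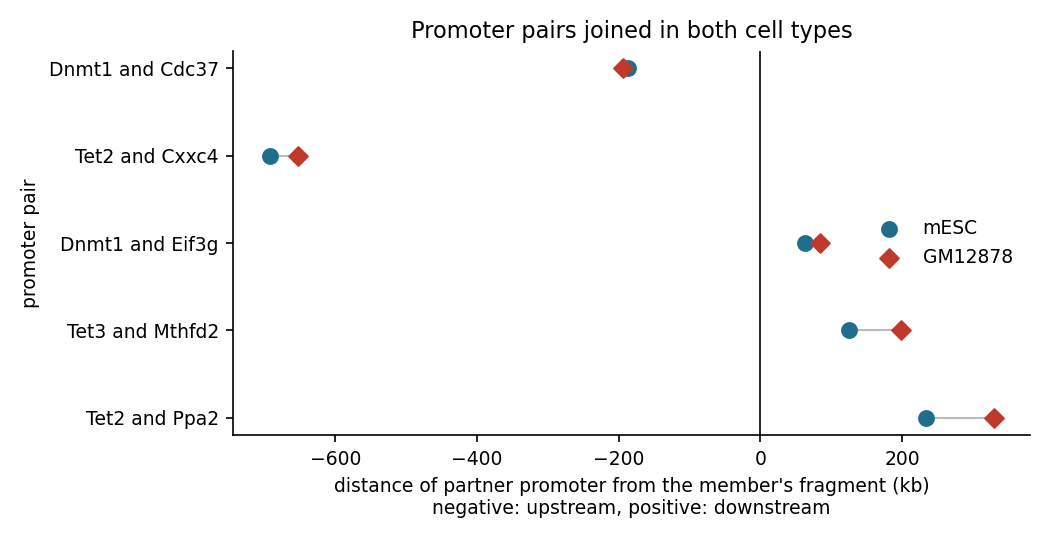
Each row is a promoter pair joined in both lists, drawn at its fragment pair of highest score, with the distance of the partner from the gene's fragment in kb on the x axis (upstream negative), circles for mESC and diamonds for GM12878. All 5 pairs keep their side, and the *Tet2* to *Ppa2* distance goes from 234 kb in mESC to 329 kb in GM12878.

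The uncaptured Hi-C library of the mESCs gave a second view. Of the 69 calls, 3 fell within a pair of 25-kb bins with an adjusted p under 0.05, or 4.35% (Wilson 95% interval 1.49 to 12.02%), where 11.6% of all mESC calls under 1 Mb did. All 3 came from the same bin pair at the *Dppa* locus and were 2 fragment pairs, since that of *Dppa2* and *Dppa4* was called from both ends. Its bins, chr16:48280307-48305307 and chr16:48294179-48319179, held the *Dppa4* and *Dppa2* promoters. They overlap, so the read pairs cannot be assigned to contacts between the promoters alone. This bin pair had 58 read pairs where 21.6 were expected from coverage and distance (adjusted p = 1e-05, from HOMER's binomial test as deposited). None of the 41 calls of the TET genes and none of the 18 of the DNMT genes was in such a bin pair. Among the 10 calls with a score of at least 10 the count was 0, while 28.5% of all calls with such scores were within one. With every listed bin pair, whatever its adjusted p, 18 of the 69 calls were within one (26.1%), close to 29.9% of all calls. A further bin pair past the threshold, chr9:20742343-20767343 with chr9:20726688-20751688, had 82 read pairs where 39.3 were expected (adjusted p = 0.000119 by the same binomial test). The first bin held the *Dnmt1* promoter and part of the gene, and the second lay within the gene. The centre of the second was 26.1 kb from the midpoint of the *Dnmt1* bait, and no call of *Dnmt1* went there. The bins overlap, so the read pairs cannot be assigned to the promoter.

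The fragments were also searched for a core of the motif of CTCF, an architectural protein, on both strands. It was written as CCA, 2 free bases, AG, 2 free bases and GGC, and overlapping matches were counted. In mESCs 19 of the 37 unbaited partners held a match, or 51.4%, against 35.4% of all listed unbaited other ends, and of 25 baited partners 10 did, or 40.0%, against 41.4% of all listed baits. Shares are also a matter of length, which averaged 4.67 kb for the unbaited partners and 4.52 kb for all unbaited other ends. In GM12878 4 of 27 unbaited partners held a match (14.8%, against 16.5%), and 8 of 19 baited partners did (42.1%, against 28.4% of all listed baits). The most frequent full form of the match in mESC fragments was CCAGAAGAGGGC. It made up 34 of the 60 matches in the fragments of the genes and their partners, or 56.7%, and 43.0% of those in all listed fragments. In GM12878 none of 19 matches had this form, and 1.06% did over all listed fragments. As background, this form is found in the B2 interspersed repeats of rodents. Sites of this form from different loci are printed with 14 flanking bases, the motif in capitals, because their flanks are nearly identical; a site of another form near the *Tet3* block is printed last for contrast. They are given 5′ to 3′ on the motif strand at chr10:62362341-62362380 (minus), chr9:20758994-20759033 (minus), chr10:77630863-77630902 (minus), chr16:48330067-48330106 (minus) and chr6:83645881-83645920 (plus) of mm9.
Tet1 bait: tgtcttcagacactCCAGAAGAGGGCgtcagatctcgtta
Dnmt1 bait: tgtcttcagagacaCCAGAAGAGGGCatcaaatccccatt
D10Jhu81e partner of Dnmt3l: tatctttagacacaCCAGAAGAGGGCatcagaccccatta
intergenic partner of Dppa2 and Dppa4: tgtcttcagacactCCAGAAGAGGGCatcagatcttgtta
partner of Tet3, 254 kb upstream: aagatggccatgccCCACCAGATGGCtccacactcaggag
A match is a description of the letters and says nothing of whether CTCF was bound.

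Related genes from fixed lists also ranged widely in their numbers of calls. Of 11 genes of methylation reading and maintenance, 8 were in the mESC list and 4 had at least 5 calls, from *Zbtb4* with 55 and *Uhrf1*, the partner of DNMT1 in maintenance, with 15 down to *Mbd3* with 1. In GM12878 9 were listed and 4 had at least 5 calls, with *UHRF1* at 2. Of 15 genes of base excision and deamination, which complete the removal of oxidised cytosine, 11 were listed in mESCs and 12 in GM12878, and 5 and 8 had at least 5 calls; *Tdg*, the glycosylase that acts after the TET proteins, was not listed in mESCs and had 4 calls in GM12878. Of 9 genes of imprint and repeat methylation 6 and 8 were listed, and 4 and 5 had at least 5 calls. The highest mESC counts were those of *Zfp57*, a keeper of imprints, with 18 and *Trim28*, its corepressor, with 28. *Setdb1*, *Ehmt2* and *Kdm2b* were not listed in mESCs. In GM12878 *EHMT2* had 49 calls, *TRIM28* had 2 and *ZFP57* was not listed. *Dppa1* and *Dppa5a* had 5 and 16 mESC calls; these mouse symbols could not be followed by letters into the GM12878 list. Of 9 pluripotency genes 7 and 6 were listed, and 4 and 2 had at least 5 calls. Over the methylation genes found in each list, the median was 5.5 calls for 10 genes in mESCs and 6 for 7 genes in GM12878, beside a median of 4 over all listed symbols in each list. At least 5 calls were reached by 47.7% of all symbols listed in mESCs and by 48.0% of those in GM12878.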

How the data were processed

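Promoter CHi-C was measured in 3 GM12878 and 2 mESC replicates and Hi-C in 1 mESC library. Reads were aligned and filtered by the authors in HiCUP (Bowtie 1.1.0 per the labels; hg19 and mm9), who kept pairs with an end on a bait and ran CHiCAGO jointly on the replicates of a cell type. The read count deposited beside a call averages the replicates by their size factors and was rounded by the authors, so it was treated as a score and not as raw counts. The deposited CHiCAGO score is at least 5. For Hi-C, the read pair counts, the expected signal and the p-values adjusted by HOMER (4.7 per the labels) were used as deposited. Depth per replicate is not in the lists used here, and precision follows from the number of calls.

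Symbols were split at semicolons, bars and commas, with transcript numbers removed. Bait-to-bait pairs called from both ends stand as 2 calls. Distances are between fragment midpoints, and a call fell within a Hi-C bin pair where its midpoints did. Shares carry Wilson 95% intervals and medians exact order-statistic intervals (scipy 1.17.1). They cover counting error only, and adjoining fragments are not independent. No test between samples was possible. Annotation came from the same builds, and 100% of listed fragments had *Hin*dIII ends. The named genes are the members, the genes at their 3 calls of highest score, at their longest call and at baited partners, and the bait most alike. Genes named as unbaited partners or as nearest starts, and those of the related lists, were chosen after their values were seen. The members and lists were chosen with earlier results of these data known. Parsing and intervals were tested on simulated data. Alternatives were a score of 10, 10 reads, each pair once, the browser list, other Hi-C rules and leaving out each gene. The promoter window of mouse *Dppa4* is not reported here.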

Additional observations from a re-analysis of the deposited data

How the results depend on the processing

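No paired analysis was possible because the deposited lists hold calls merged over replicates and their columns carry no replicate, and for that reason no replicate could be left out. A score of at least 10 left 10 mESC and 9 GM12878 calls of the genes, raised the baited share of the mESC other ends to 60.0% and, by construction, the median score to 15.04, and put 0.0% of the calls within a Hi-C bin pair. Calls on at least 10 reads had a median distance of 57.9 kb. With every listed Hi-C bin pair the share was 26.1%. The cause of these shifts was not tested, and the score and read filters also left fewer calls. Each fragment pair counted once, and equally the browser list, gave 62 mESC and 50 GM12878 contacts. Leaving out each gene in turn kept the median distance between 79.8 kb (without *Tet3*) and 142 kb (without *Tet1*), the baited share between 40.0% and 49.2% and the median score between 6.27 and 6.65, all within the intervals given. In GM12878, where this was added after seeing the data, the baited share was 35.0% without *DNMT1*, 66.7% without *TET3* and 49.1 to 53.7% otherwise, and the median distance 103 to 156 kb. Of 17 counts per gene, 17 stayed within 1.5 times with pairs counted once, 10 with at least 10 reads and 0 with a score of at least 10. Contacts on 5 to 9 reads, which include all mESC contacts of *Dppa3* and *Dnmt3b*, rest on few molecules.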
